A study of Mus musculus with 15 samples.

Results

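The proteasome subunits, their assembly factors and their activators were followed in the kidneys of male mice at 3 ages. Members were all genes of the deposited transcript table whose symbol begins with Psma, Psmb, Psmc, Psmd, Psme, Psmf or Psmg followed by a digit, pseudogenes left out. This gave 49 of the 33058 genes with a summed value. By role these were 8 genes of the alpha ring, 4 of the beta ring without a catalytic site, 3 constitutive catalytic subunits, 3 catalytic subunits of the immunoproteasome and Psmb11, the catalytic subunit of the thymus. The regulatory particle gave 6 ATPases, 11 other subunits and 3 assembly factors. The remaining genes were 4 activators, Psmf1, which encodes the regulator PI31, and 4 assembly factors of the core. Psmc3ip also matched by its symbol. It encodes a recombination factor and is not a proteasome subunit, and it was counted as a member because the rule takes it. The kidneys came from male C57BL/6 mice (C57BL/6J in the study's methods) aged 3, 12 or 24 months, 5 mice per age, fed standard chow, with no treatment given in the labels, and RNA of the tissue was sequenced as 1 library per mouse. The study asked which long non-coding RNAs of the kidney change with age and which mRNAs vary with them. Mice are named by their age and by the number in their label. Because bulk tissue was sequenced, fewer cells of a type and less RNA per cell cannot be told apart. The tissue label was borne out by Slc34a1 of the proximal tubule and Umod of the thick ascending limb, whose mean levels were 892 and 845 FPKM, the fragment count scaled to transcript length and library size.

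The proteasome is the protease that breaks down most short-lived, misfolded and ubiquitin-tagged proteins of the cytosol and the nucleus. Its core is a barrel of stacked alpha and beta rings. The beta subunits encoded by Psmb5, Psmb6 and Psmb7 carry the protease sites with chymotrypsin-like, caspase-like and trypsin-like activity. The regulatory particle binds tagged proteins, removes the ubiquitin, and unfolds the chain with a ring of ATPases. In cells exposed to interferon gamma, and constantly in many immune cells, the subunits encoded by Psmb8, Psmb9 and Psmb10 take the places of Psmb5, Psmb6 and Psmb7 in newly built cores. The resulting immunoproteasome yields peptides suited to presentation on MHC class I, and the activator PA28, built from Psme1 and Psme2, opens the barrel ends. In the kidney, tubule cells depend on the constitutive form for protein quality control, and the immunoproteasome is found mainly in leukocytes and in inflamed tissue.

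Transcription of the constitutive genes is known to be raised by NFE2L1 when proteasome activity is short, through elements that contain the letters TGACNNNGC. The immunoproteasome genes answer to the interferon regulatory factors, whose sites contain the interferon-stimulated response element, written here as GAAA, any 2 bases, GAAA. Promoter windows of 250 bases before the gene start, from RefSeq on GRCm38.p6, were matched for 41 of the 49 members and searched on both strands. TGACNNNGC was present in 12.2% of the matched members and in 10.2% of all 32851 windows, and the interferon-stimulated response element in 7.32% against 2.98%. The 5 members with TGACNNNGC were Psmb5, Psmb6, Psmc6, Psmd9 and Psmd12. The 3 with the interferon-stimulated response element were Psmb3, Psmd4 and Psmd9, and the windows of Psmb8, Psmb9 and Psmb10 held neither motif. The windows are shown for catalytic subunits because their levels are contrasted below by pair, with the motif letters in capitals and each printed 5′ to 3′ on the strand of its gene. Psmb5 (chr14:54618023-54618245, minus strand) held TGACGTCGC between 47 and 39 bases before the RefSeq start, and Psmb6 (chr11:70525107-70525356, plus strand) held TGACGGAGC directly before it. The window of Psmb10 lies at chr8:105938445-105938642 on the minus strand. Bases that lay inside an annotated transcript of the gene were left off, and the windows of Psmb8 and Psmb9 are not printed because they lay within the main transcripts of these genes. A match describes the letters only.
Psmb5: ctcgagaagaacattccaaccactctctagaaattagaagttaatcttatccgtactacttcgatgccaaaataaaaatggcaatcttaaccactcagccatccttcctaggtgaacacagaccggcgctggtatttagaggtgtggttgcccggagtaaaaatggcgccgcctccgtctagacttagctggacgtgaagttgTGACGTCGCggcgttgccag
Psmb6: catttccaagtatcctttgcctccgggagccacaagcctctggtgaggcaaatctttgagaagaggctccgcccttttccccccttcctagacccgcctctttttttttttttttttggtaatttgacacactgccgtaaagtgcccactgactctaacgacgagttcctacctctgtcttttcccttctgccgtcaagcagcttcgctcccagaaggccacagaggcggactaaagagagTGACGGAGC
Psmb10: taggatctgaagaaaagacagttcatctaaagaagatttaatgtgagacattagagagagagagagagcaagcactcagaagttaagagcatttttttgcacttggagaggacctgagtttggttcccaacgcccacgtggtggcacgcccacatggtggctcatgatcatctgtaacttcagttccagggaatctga

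The aligned bases per library lay between 5.03 and 8.03 Gb, and the median was 6.04 Gb in the 3-month, 7.17 Gb in the 12-month and 7.00 Gb in the 24-month group. The 15 libraries correlated with each other at r between 0.895 and 0.934, and none stood apart. The FPKM of all members together summed to 979 ± 64.3 at 3 months, 1036 ± 44.7 at 12 months and 968 ± 11.7 at 24 months (mean ± SD, n = 5 each).

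The level of the members followed their place in the complex. Of the 49 members, 47 had a mean of at least 1 FPKM over the 15 mice. Psma8, the alpha subunit of the testis, had a mean of 0.133 FPKM, and the thymus subunit Psmb11 had 0.00693 FPKM. The median of the members' means was 17.7 FPKM, compared with 5.88 FPKM over the 13446 genes with a mean of at least 1. Among subunits of the core, the alpha ring had a median of 27.9 FPKM and was led by Psma4 with 32.9 FPKM. The non-catalytic beta subunits ranged from 19.9 FPKM for Psmb2 to 40.5 FPKM for Psmb1, and the constitutive catalytic subunits from 21.7 FPKM for Psmb5 to 56.9 FPKM for Psmb6, the highest member. The ATPases of the regulatory particle, which unfold the substrate, lay between 14.6 FPKM for Psmc1 and 49.8 FPKM for Psmc6. Its other subunits lay between 12.6 FPKM for Psmd12 and 41.0 FPKM for Psmd11.

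Factors that help to build the complex but do not stay in it were lower. Psmd5, Psmd9 and Psmd10, chaperones of the regulatory particle, had means of 4.14 to 9.68 FPKM, and Psmg1 to Psmg4, chaperones of the core, 2.04 to 7.61 FPKM. Psmf1 had 4.35 FPKM and Psmc3ip 1.02 FPKM. The activators ran from 10.5 FPKM for Psme2 to 38.4 FPKM for Psme4, which encodes PA200. The 3 immunoproteasome subunits had the lowest median of the groups with more than 1 gene, 2.68 FPKM, with Psmb9 at 2.43 FPKM, Psmb8 at 2.68 FPKM and Psmb10 at 3.88 FPKM. FPKM is a value per length, so these levels can be compared between genes in broad terms. The division of reads between transcripts and overlapping genes, described below, can limit this.

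**Figure D1:**
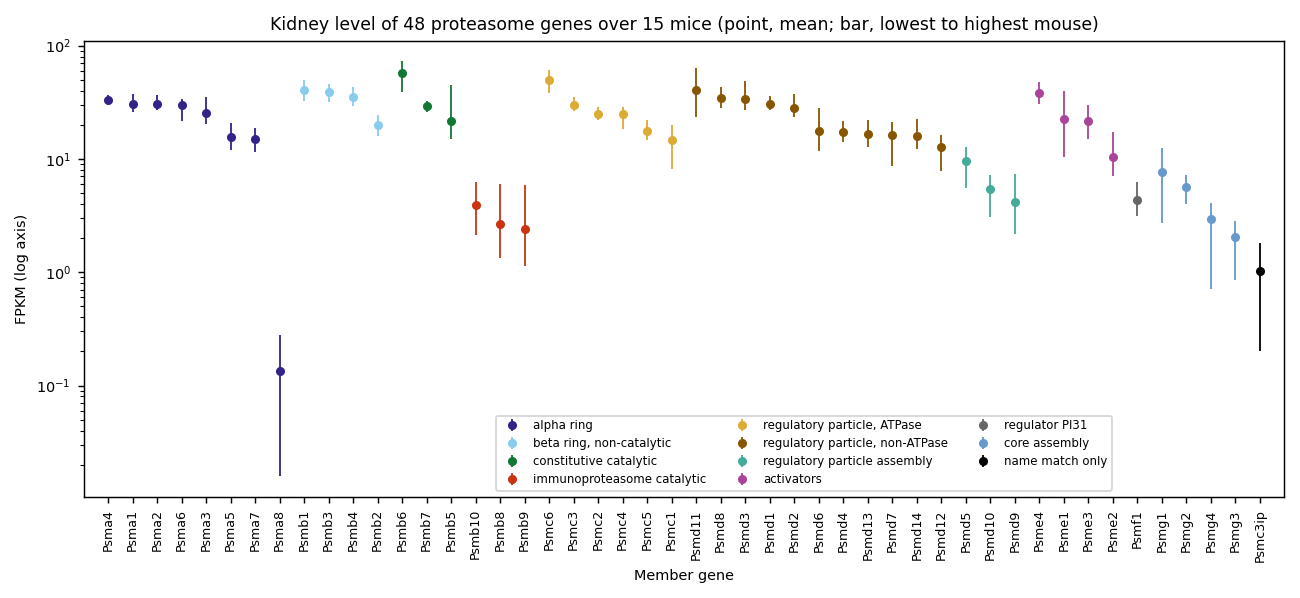
Level of 48 members in the kidney, in FPKM on a log axis, ordered and coloured by role. Points are means over 15 mice and bars run from the lowest to the highest mouse; Psmb11, at 0.00693 FPKM, is not drawn. The immunoproteasome subunits (means of 2.43 to 3.88 FPKM) lie below the constitutive catalytic subunits they replace (21.7 to 56.9 FPKM).

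The same groups differed in how much mice of one age varied. The coefficient of variation (SD as a percent of the mean, within an age) had a median of 15.5% over the members and 21.4% over all genes with a mean of at least 1 FPKM. It was 10.1% for the alpha ring, 9.69% for the non-catalytic beta subunits, 11.8% for the constitutive catalytic subunits and 11.4% for the ATPases. Psma4 varied least of all members, at 6.13%. The immunoproteasome subunits had a median of 43.6%, and Psmb9 was the most variable member at 49.1%. The chaperone Psmg1 came close to it at 47.6%. These groups were not matched for level. The median level was 17.7 FPKM for the members, 5.88 FPKM for all genes with a mean of at least 1 FPKM and 2.68 FPKM for the immunoproteasome subunits. The part of the level in this variation was not tested.

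The constitutive catalytic subunits were compared next with the age of the mice. Psmb5 (main transcript chr14:54614120-54617995 of GRCm38, minus strand) had 21.9, 20.4, 19.6, 20.5 and 19.5 FPKM in 3-month mice 5 to 9. It had 45.1, 18.1, 20.7, 18.4 and 25.3 FPKM in 12-month mice 17 to 21, and 20.8, 18.8, 25.8, 14.9 and 15.9 FPKM in 24-month mice 31 to 35. The ages overlapped, and mouse 17 alone stood well above the rest. The log2 fold change of FPKM + 1 was -0.11 between 24 and 3 months (SE 0.13, adjusted p = 0.726 in limma) and 0.22 between 12 and 3 months (adjusted p = 0.658).

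Psmb6 (chr11:70525386-70527649, plus strand) had 39.6, 38.6, 54.9, 51.1 and 57.5 FPKM in the 3-month mice and 58.3, 61.9, 64.5, 69.5 and 72.5 FPKM in the 12-month mice. In the 24-month mice it had 57.9, 59.7, 63.3, 52.0 and 51.6 FPKM. Every 12-month mouse was above every 3-month mouse, with mouse 9 at 57.5 and mouse 17 at 58.3 FPKM next to each other, and the 24-month mice overlapped both. The log2 fold change was 0.44 between 12 and 3 months (SE 0.13, limma adjusted p = 0.166), 0.24 between 24 and 3 months (adjusted p = 0.418) and -0.20 between 24 and 12 months (adjusted p = 0.761). Without 3-month mouse 9 the difference between 24 and 3 months was 0.31 and passed an unadjusted p of 0.05 in limma. Psmb7 (chr2:38588036-38644087, minus strand) stayed between 26.1 and 32.3 FPKM in all 15 mice. Its log2 fold changes were -0.01 (95% interval -0.19 to 0.16), 0.07 (-0.10 to 0.23) and -0.08 (-0.23 to 0.06) for 24 against 3, 12 against 3 and 24 against 12 months.

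The immunoproteasome subunits were higher on average at each later age, within a spread that no test separated. Psmb8 (chr17:34197790-34201454, plus strand) had 1.53, 1.34, 2.05, 1.98 and 4.12 FPKM at 3 months, 3.51, 2.27, 2.70, 2.12 and 2.21 FPKM at 12 months, and 2.82, 6.05, 2.56, 2.003 and 2.995 FPKM at 24 months. Mouse 9 of the young and mouse 32 of the old group were the highest, and the ages overlapped. Its log2 fold change between 24 and 3 months was 0.41 (SE 0.27, limma adjusted p = 0.528). Psmb9 (chr17:34181988-34187764, minus strand) had 1.14, 1.15, 2.30, 1.51 and 3.17 FPKM at 3 months, 3.31, 1.48, 1.34, 2.44 and 2.91 FPKM at 12 months, and 2.27, 5.83, 1.65, 2.38 and 3.52 FPKM at 24 months. The highest mice of the young and the old group were again 9 and 32. Between 24 and 3 months it differed by 0.50 (SE 0.28, limma adjusted p = 0.465). Psmb9 lies head to head with Tap1, the peptide transporter of antigen processing, and whether reads were counted by strand is not given in the sources used here, so reads of the overlap cannot be assigned with certainty. The main transcripts of Psmb7, Psmd13 and Psme1 likewise overlap other expressed genes, Nek6, Sirt3 and Emc9.

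Psmb10 (chr8:105935739-105938444, minus strand) had 2.14, 2.42, 3.98, 2.91 and 6.22 FPKM at 3 months, 4.49, 4.21, 3.12, 3.01 and 4.36 FPKM at 12 months, and 3.80, 6.10, 3.88, 2.83 and 4.76 FPKM at 24 months. Here mouse 9 of the young group was the highest of all 15. The log2 fold change between 24 and 3 months was 0.26 (SE 0.25, limma adjusted p = 0.662). Between 12 and 3 months the 3 subunits differed by 0.20, 0.22 and 0.15 (Psmb8, Psmb9 and Psmb10), and between 24 and 12 months by 0.21, 0.28 and 0.11, all with a limma adjusted p of 0.673 or more. Mouse 9 decided part of this. Without it the difference between 24 and 3 months was 0.60 for Psmb8 and 0.65 for Psmb9, and that of Psmb8 between 12 and 3 months was 0.38, and all of these passed an unadjusted p of 0.05 in limma. None passed after adjustment over all genes. Mouse 32 weighed in the other direction, as the highest old mouse for all 3 subunits. It had 6.05 FPKM for Psmb8, where the other old mice had 2.003 to 2.995 FPKM. Without mouse 32 the difference of Psmb10 between 24 and 12 months was -0.0074. The differences of Psmb8 and Psmb9 without mouse 32 are not given here. These folds are on the scale of FPKM + 1, which understates changes of genes at this level.

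**Figure D2:**
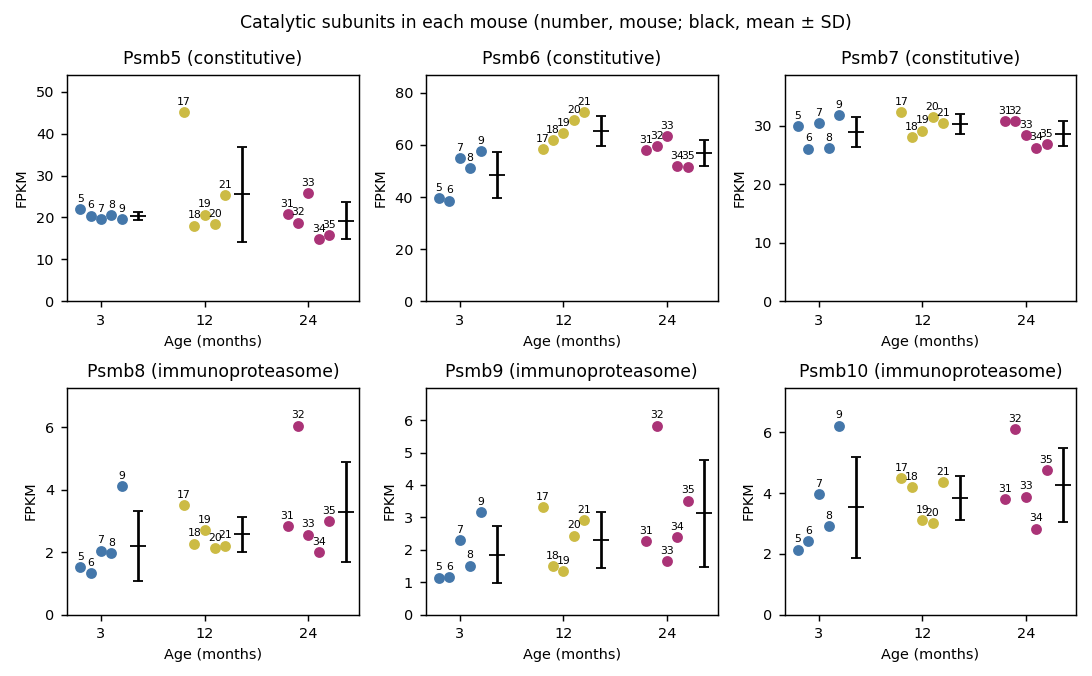
FPKM of the constitutive catalytic subunits (upper row) and of the immunoproteasome subunits that replace them (lower row) at 3, 12 and 24 months. Each numbered point is a mouse, and black bars give the mean ± SD (n = 5). Psmb6 separates 12-month from 3-month mice, whereas the immunoproteasome subunits are highest in mice 9 and 32 and overlap between ages.

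Each immunoproteasome subunit was then set against the subunit whose place it takes, within each mouse. Psmb8 made up 6.14% to 24.4% of the summed FPKM of Psmb8 and Psmb5 (median 10.4%), Psmb9 made up 2.04% to 8.90% of Psmb9 and Psmb6 (median 3.78%), and Psmb10 made up 6.69% to 16.5% of Psmb10 and Psmb7 (median 11.5%). From the means over 15 mice, the constitutive subunit was 8.09, 23.4 and 7.55 times as high. The 3 pairs summed, the share of the immunoproteasome subunits had medians of 6.13%, 6.86% and 7.52% at 3, 12 and 24 months. Mouse 32 had the highest share, 14.1%, followed by mouse 9 with 11.0% and mouse 35 with 10.7%. The shares overlapped between all ages.

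The log2 ratio of Psmb8 to Psmb5, with 1 added to each FPKM, was -2.80 ± 0.49 at 3 months, -2.82 ± 0.36 at 12 months and -2.28 ± 0.53 at 24 months (mean ± SD, n = 5 each). The difference was 0.52 between 24 and 3 months (exact permutation test, 2-sided, p = 0.159) and 0.54 between 24 and 12 months (exact p = 0.0873). For Psmb9 to Psmb6 the differences were 0.26 (exact p = 0.373) and 0.48 (exact p = 0.151), and for Psmb10 to Psmb7 they were 0.27 (exact p = 0.262) and 0.19 (exact p = 0.270). Between 12 and 3 months the 3 ratios differed by -0.02, -0.22 and 0.08, each with an exact p of 0.325 or more. After Benjamini-Hochberg adjustment over the 9 comparisons the smallest p was 0.476, and the smallest p that 5 against 5 mice allow is 0.00794. Single mice moved the Psmb8 ratio across 0.05. Without 3-month mouse 9 the difference between 24 and 3 months was 0.72 (exact p = 0.0397), and without 24-month mouse 33 that between 24 and 12 months was 0.70 (exact p = 0.00794). Neither p was adjusted, and both differences were the largest found when a mouse was left out. The smallest were 0.32 between 24 and 3 months and 0.35 between 24 and 12 months.

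Within an age, the 3 immunoproteasome subunits were high and low in the same mice. With each age centred on its mean, log2(FPKM + 1) of Psmb8 and Psmb10 correlated over the 15 mice with Pearson's r = 0.854 (permutation p = 5.7e-04) and Spearman's rho = 0.789 (permutation p = 0.00316). For Psmb9 and Psmb10 r was 0.783 (permutation p = 0.00156) and rho 0.696 (permutation p = 0.00741). For Psmb8 and Psmb9 r was 0.778 (permutation p = 0.00336) and rho 0.593 (permutation p = 0.0325). This last relation was weaker without mice 9 and 32, the 2 farthest from the median of Psmb8, with r = 0.448. Without the same mice r of Psmb8 with Psmb10 was 0.646. For Psmb9 the 2 farthest mice were 5 and 32, and without them r of Psmb9 with Psmb10 was 0.696. Mouse 9 stayed in there, so this pair was not computed without both 9 and 32. Among the constitutive subunits no pair passed. Psmb5 with Psmb6 gave r = -0.05, Psmb5 with Psmb7 0.379 and Psmb6 with Psmb7 0.446, each with a permutation p of 0.115 or more. Nor did any immunoproteasome subunit pass with its constitutive counterpart, where r was 0.222 for Psmb8, 0.383 for Psmb9 and 0.531 for Psmb10 (permutation p of 0.0919 or more). Without the 2 mice farthest from the median of the immunoproteasome subunit these were 0.562 (mice 9 and 32), 0.279 (5 and 32) and 0.518 (5 and 9). That of Psmb8 with Psmb5 was then above the 0.448 of Psmb8 with Psmb9 without the same mice.

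Ptprc, which encodes the leukocyte antigen CD45, gave r = 0.540 for Psmb8 (permutation p = 0.0378), 0.372 for Psmb9 (permutation p = 0.179) and 0.539 for Psmb10 (permutation p = 0.0780), with rho of 0.493, 0.379 and 0.489. Without the 2 mice farthest from the median of the subunit, r with Ptprc was 0.628 for Psmb8 (without mice 9 and 32), 0.601 for Psmb9 (without mice 5 and 32) and 0.663 for Psmb10 (without mice 5 and 9). The p-values were adjusted over the 15 relations computed, of which 12 are given here. Among these r kept an adjusted p under 0.05 in 3, those among the immunoproteasome subunits, and rho in 2, the exception being Psmb8 with Psmb9 (adjusted p = 0.0813).

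**Figure D3:**
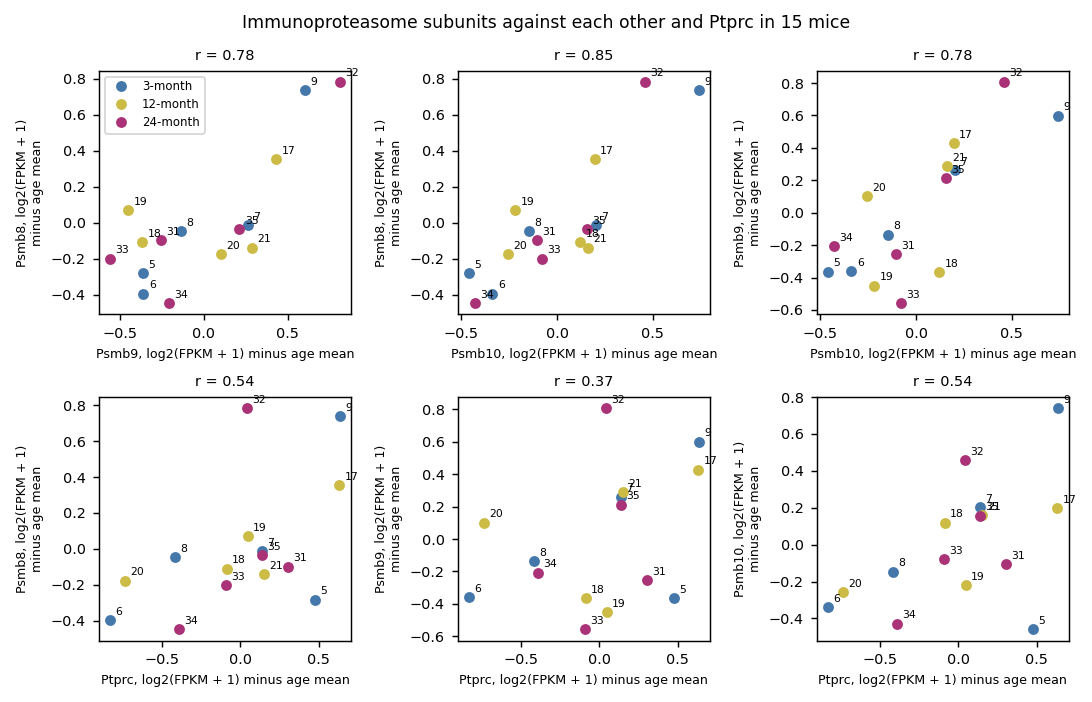
Upper row, the 3 pairs of Psmb8, Psmb9 and Psmb10, and lower row, each of them (vertical axis) against Ptprc (horizontal axis), as log2(FPKM + 1) minus the mean of the mouse's age. Points are the 15 mice, numbered and coloured by age, and r is given above each panel: 0.778 for Psmb8 with Psmb9, 0.854 for Psmb8 with Psmb10, 0.783 for Psmb9 with Psmb10, and 0.540, 0.372 and 0.539 with Ptprc.

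Markers of leukocytes also differed with age in these kidneys. Of the 4 general leukocyte markers 2 were higher at 24 than at 3 months at an unadjusted limma p under 0.05 (11.4% of all genes were), among them Ptprc with a log2 fold change of 0.78 (adjusted p = 0.226). Their summed level was 6.14 to 21.6 FPKM at 3 months, 17.2 to 30.0 FPKM at 12 months and 15.2 to 29.7 FPKM at 24 months. All 7 markers of B and plasma cells were higher at 24 months, with sums of 11.5 to 103 FPKM at 3 months, 71.2 to 475 FPKM at 12 months and 106 to 246 FPKM at 24 months. Of the macrophage markers 0 of 6 and of the T cell markers 1 of 6 were higher, with sums of 34.4 to 69.3 and 2.79 to 7.71 FPKM at 24 months, compared with 28.6 to 51.4 and 1.495 to 4.27 FPKM at 3 months. At 12 months these sums were 47.4 to 92.2 and 3.67 to 4.73 FPKM. Higher at 12 than at 3 months were 3 of the 4 general leukocyte, 6 of the 7 B and plasma cell, 2 of the 6 macrophage and 1 of the 6 T cell markers (11.4% of all genes), the macrophage genes being C1qa (1.105, adjusted p = 0.316) and Lyz2 (1.36, adjusted p = 0.2535). No marker of these lists was listed at 0 in all mice. Among the markers of kidney cells Slc5a2 of the proximal tubule was lower at 24 months (-0.56, adjusted p = 0.0703) and Pecam1 of the endothelium higher (0.26, adjusted p = 0.306), and none of the thick limb, collecting duct, podocyte or red blood cell lists had p under 0.05 in this comparison. Aqp2 of the collecting duct was lower at 12 than at 3 months (-1.17, adjusted p = 0.191). Between 24 and 12 months Slc12a1 of the thick limb was higher (0.21, adjusted p = 0.747) and Slc5a2 lower (-0.32, adjusted p = 0.747). The part of these cells in the levels of Psmb8, Psmb9 and Psmb10 was not tested.

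Neither subunit of PA28 passed the test between ages. Psme1 had 19.6, 26.7, 22.2, 15.1 and 32.2 FPKM at 3 months, 11.9, 10.4, 10.3, 28.7 and 25.5 FPKM at 12 months, and 18.9, 16.5, 32.4, 29.5 and 39.5 FPKM at 24 months. Mice 17, 18 and 19 were the lowest of all, mice 20 and 21 lay within the range of the other ages, and the groups overlapped. Its log2 fold change was 0.21 between 24 and 3 months (SE 0.27, limma adjusted p = 0.738) and 0.69 between 24 and 12 months (SE 0.35, adjusted p = 0.806). Psme2 had 7.04, 8.69, 8.30, 9.79 and 12.4 FPKM at 3 months, 17.1, 10.1, 10.5, 9.92 and 12.1 FPKM at 12 months, and 9.45, 14.9, 8.67, 8.42 and 9.98 FPKM at 24 months. Its highest mice were 9, 17 and 32, a different mouse of each age. Its log2 fold change was 0.13 between 24 and 3 months (SE 0.17, limma adjusted p = 0.736) and 0.33 between 12 and 3 months (adjusted p = 0.427). Without mouse 9 the latter was 0.43 and passed an unadjusted p of 0.05. Leaving out 12-month mouse 20 turned the difference of Psme1 to -0.69 between 12 and 3 months and to 0.90 between 24 and 12 months, and without mouse 21 or 32 the latter was 0.86 or 0.85. Each of these passed an unadjusted p of 0.05 in limma, and none did with all mice. The other activators, Psme3 and Psme4, did not pass in any comparison.

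The whole complex was then compared between old and young kidneys. Between 24 and 3 months, 4 of the 49 members had an unadjusted limma p under 0.05 (8.16%, compared with 14.9% of the 31755 genes tested). Of these 2 were higher and 2 lower, where 11.4% of all genes were higher and 3.47% lower. No member passed after adjustment (1.22% of all genes did), and none had an absolute log2 fold change above 1 with p under 0.05 (0.523% of all genes). A log2 fold change above 0 was found for 25 members (51.0%, compared with 63% of all genes). The median was 0.0063 for the members, 0.020 for all genes and 0.053 for genes with a mean of at least 1 FPKM. Scaling the libraries by the median of ratios turned the count to 10, with 1 higher and 9 lower. The members' median was then -0.096 and that of all genes 0.0049, so the balance of directions depends on the scale. The share of all genes with p under 0.05 on that scale is not given here, so the count of 10 stands without it. None of the 11 non-ATPase subunits of the regulatory particle among the members had a fold change above 0 on the main scale, and their median was -0.094. Outside the symbol rule, Sem1, a further subunit of this particle, was higher (0.48) and the ubiquitin receptor Adrm1 lower (-0.26), as given below with the partners. For the 47 members with a mean of at least 1 FPKM the 95% intervals reached a median of 0.27 to either side of the estimate, and 39 of them differed by less than 0.25 in either direction.

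The higher members at 24 months were Psmc1 and Psma5. Psmc1, the ATPase Rpt2 whose tail helps to open the gate of the core, had 14.8, 10.0, 8.22, 14.1 and 11.6 FPKM at 3 months, 11.5, 12.0, 17.03, 15.9 and 16.7 FPKM at 12 months, and 20.001, 15.4, 19.98, 12.8 and 19.5 FPKM at 24 months. Of the old mice 4 were above every young mouse, and mouse 34 lay among the young. Old and young mice differed by 0.55 (SE 0.18, limma adjusted p = 0.180). Psma5, an alpha ring subunit, had 16.3, 12.1, 13.0, 14.1 and 13.3 FPKM at 3 months, 20.8, 15.7, 17.4, 13.0 and 18.6 FPKM at 12 months, and 17.5, 14.9, 16.5, 16.7 and 15.9 FPKM at 24 months. Mouse 5 alone of the young reached the old range. Its log2 fold change was 0.23 (SE 0.08, limma adjusted p = 0.209). Both kept an unadjusted p under 0.05 when any of the 10 mice was left out, with fold changes of 0.44 to 0.65 for Psmc1 and 0.19 to 0.29 for Psma5. Psma5 lost it with median-ratio scaling (0.13) and when only transcripts identical to Ensembl models were summed (0.19).

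The lower members were Psmd11 and Psma1. Psmd11, the subunit Rpn6 that clamps the regulatory particle to the core, had 63.2, 56.9, 45.7, 36.7 and 49.5 FPKM at 3 months, 32.5, 35.1, 33.6, 48.8 and 39.6 FPKM at 12 months, and 31.5, 31.2, 40.3, 23.3 and 46.4 FPKM at 24 months. Mice 5, 6 and 9 were higher than all older mice, and mice 7 and 8 overlapped with them. The difference was -0.55 (SE 0.20, limma adjusted p = 0.230). Without mouse 5 it was -0.46 and no longer had an unadjusted p under 0.05. Psma1 of the alpha ring had 32.8, 28.7, 30.4, 34.1 and 37.6 FPKM at 3 months, 35.2, 31.2, 30.6, 25.8 and 34.1 FPKM at 12 months, and 31.3, 28.2, 26.0, 27.5 and 28.6 FPKM at 24 months. The groups overlapped, and the fold change was -0.20 (SE 0.08, limma adjusted p = 0.293). It lost p under 0.05 without mouse 5, 8, 9, 32, 33, 34 or 35, and with FPKM rescaled to an equal total (-0.18). The same held when only genes with a mean of at least 1 FPKM were tested and with a robust prior (-0.20 in both). As fragments scaled to library size alone, not weighted by transcript length, Psma1 differed by -0.08, also without p under 0.05. Psmb4 was next in this direction, with 36.4 ± 3.78 FPKM at 3 months and 32.2 ± 1.997 FPKM at 24 months (-0.17, limma adjusted p = 0.379).

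Between 12 and 3 months, 7 members had p under 0.05 (14.3%, the same share as the 14.3% of the 31637 genes tested), 6 of them higher (11.4% of all genes) and 1 lower (2.9%). No member passed after adjustment, compared with 0.25% of all genes. A log2 fold change above 0 was found for 37 of the 49 members (75.5%) and for 64% of all genes. The median was 0.10 for the members, 0.022 for all genes and 0.077 for genes with a mean of at least 1 FPKM. With median-ratio scaling the members' median was -0.0086, that of all genes 0.0046 and the count 3 members. The direction of the group as a whole is therefore not settled by these libraries. Psma7, an alpha ring subunit, had 13.4, 12.7, 12.8, 11.6 and 16.3 FPKM at 3 months, 17.9, 17.6, 18.1, 15.6 and 18.7 FPKM at 12 months, and 15.2, 14.4, 13.0, 14.6 and 12.4 FPKM at 24 months. All 12-month mice except mouse 20 were above all 3-month mice (log2 fold change 0.38, SE 0.09, limma adjusted p = 0.103). Psmb6 was the only member whose 3- and 12-month mice did not overlap (3.45% of all genes were higher without overlap).

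Psmc5, the ATPase Rpt6, had 17.02, 15.4, 14.9, 16.8 and 14.6 FPKM at 3 months and 19.6, 15.9, 22.1, 22.1 and 19.96 FPKM at 12 months, and all but mouse 18 were above the young range (log2 fold change 0.32, SE 0.09, limma adjusted p = 0.173). At 24 months it had 18.4, 15.2, 16.5, 15.2 and 18.6 FPKM. Psma5 was also higher at 12 months (0.29, limma adjusted p = 0.334), as were the chaperones Psmd9 (0.52, adjusted p = 0.259) and Psmd10 (0.42, adjusted p = 0.269). Psmd9 had 2.95 ± 0.71 FPKM at 3 months and 4.75 ± 1.49 FPKM at 12 months, and Psmd10 had 4.53 ± 1.16 and 6.30 ± 0.93 FPKM. Psmd11 was the only lower member with p under 0.05 (-0.39, limma adjusted p = 0.303). Psmd5, a chaperone, was next, with 10.6 ± 1.79 FPKM at 3 months and 8.93 ± 2.59 FPKM at 12 months (-0.25, limma adjusted p = 0.587). When any of the 10 mice was left out, Psma7, Psmb6 and Psmc5 kept an unadjusted p under 0.05, with fold changes of 0.33 to 0.45, 0.37 to 0.51 and 0.28 to 0.39. Psmc5 lost it with median-ratio scaling (0.19) and when only transcripts identical to Ensembl models were summed (1.095). Psma5 lost it with median-ratio scaling (0.16) and without any except mouse 5 or 20 (fold changes of 0.22 to 0.38), Psmd11 without mouse 5, 6, 9, 17, 18 or 19 (-0.50 to -0.31), Psmd10 without mouse 6, 8, 17, 18 or 19 (0.32 to 0.50) and Psmd9 without mouse 5, 9, 19 or 20 (0.42 to 0.62).

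Between 24 and 12 months, 7 members again had p under 0.05 (14.3%, compared with 6.43% of the 32282 genes tested), and all 7 were lower (3.36% of all genes). No member passed after adjustment, where 0.0031% of all genes did, which was 1 gene. Only 13 of the 49 members had a fold change above 0 (26.5%, compared with 48.6% of all genes). The median was -0.084 for the members, -0.0013 for all genes and -0.025 for genes with a mean of at least 1 FPKM. The direction held with median-ratio scaling, where the median was -0.065 for the members and 0.00060 for all genes, and 3 members were lower. It also held with FPKM rescaled to an equal total, where the medians were -0.026 and 0.021 and 1 member was lower. This comparison uses the same 12-month mice as that of 12 with 3 months, so a gene high at 12 months counts in both. Psma7 was the only member without overlap (0.573% of all genes were lower without overlap), with every 24-month mouse below every 12-month mouse (log2 fold change -0.32, SE 0.07, limma adjusted p = 0.586).

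The other 6 belonged to the core and to both parts of the regulatory particle. Psmd4, the ubiquitin receptor Rpn10, had 15.4, 18.97, 17.3, 15.3 and 18.1 FPKM at 3 months, 21.8, 17.02, 18.4, 17.002 and 19.2 FPKM at 12 months, and 17.4, 17.2, 15.2, 14.7 and 14.2 FPKM at 24 months (-0.23, SE 0.09, limma adjusted p = 0.745). Of the 12-month mice 3 were above all older mice. Psmb3, a non-catalytic beta subunit, had 40.3, 35.6, 40.6, 34.6 and 42.3 FPKM at 3 months, 45.7, 43.7, 37.0, 39.6 and 43.5 FPKM at 12 months, and 33.01, 42.7, 33.4, 36.3 and 31.6 FPKM at 24 months (-0.24, SE 0.09, adjusted p = 0.747). Mouse 32 alone of the old lay within the 12-month range. Psmd13 differed by -0.26 (adjusted p = 0.747), Psmb6 by -0.20 (adjusted p = 0.761), Psmc5 by -0.23 (adjusted p = 0.764) and Psmb4 by -0.18 (adjusted p = 0.775). In the upward direction no member had p under 0.05 (3.07% of all genes). The smallest p was that of Psme1 (0.69, limma adjusted p = 0.806), followed by those of Psmc1 (0.24, adjusted p = 0.820) and the chaperone Psmg4, which had 2.83 ± 0.35, 2.74 ± 1.15 and 3.35 ± 0.73 FPKM at 3, 12 and 24 months (0.28, adjusted p = 0.820).

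Single mice decided most of these calls. Psma7 kept an unadjusted p under 0.05 when any of the 10 mice was left out (fold changes of -0.36 to -0.28). Psmd4 lost it without mouse 17, 34 or 35 (-0.27 to -0.18), Psmb3 without mouse 17, 18, 21, 31, 33 or 35 (-0.31 to -0.20) and Psmb6 without mouse 19, 20, 21, 31, 34 or 35 (-0.24 to -0.16). Psmd13 lost it without mouse 17, 18, 20, 33, 34 or 35 (-0.33 to -0.20), Psmc5 without mouse 17, 19, 20, 21, 32, 33 or 34 (-0.31 to -0.20) and Psmb4 without any except mouse 19 or 34 (-0.22 to -0.12). The count of members was 2 without mouse 17 or without mouse 35, and with FPKM rescaled to an equal total only Psma7 was left (-0.26).

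**Figure D4:**
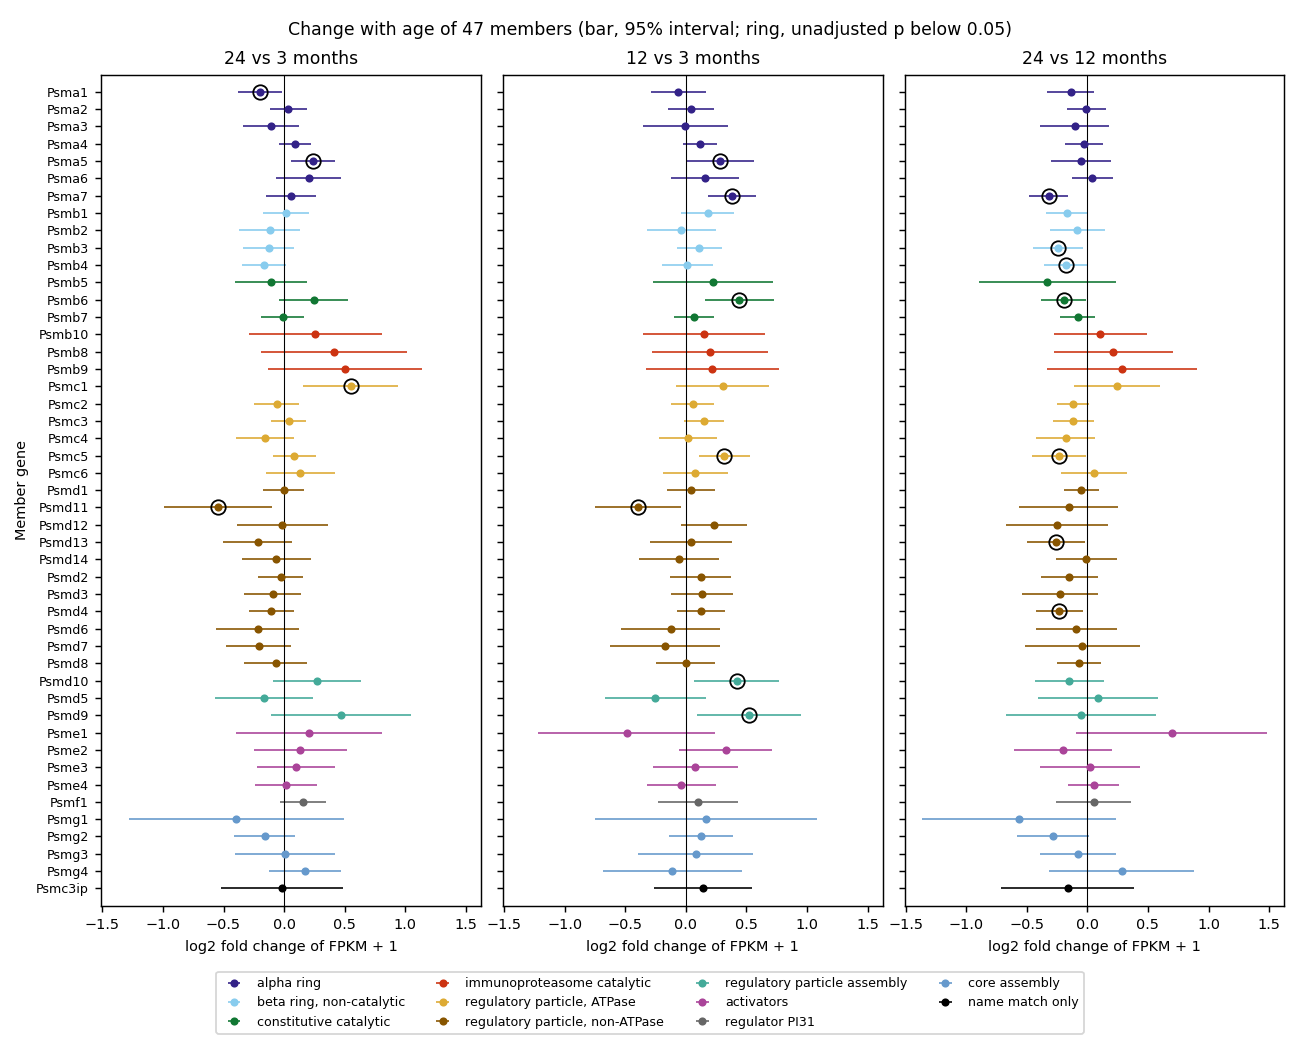
Log2 fold change of FPKM + 1 for the 47 members with a mean of at least 1 FPKM, in panels for 24 against 3, 12 against 3 and 24 against 12 months, coloured by role. Bars are 95% intervals of the limma fit and rings mark an unadjusted p under 0.05: 4, 7 and 7 members. The immunoproteasome subunits lie to the right of 0 in each panel with intervals that cross it.

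The gene values are sums over transcripts, and for some members the transcripts moved apart. The members had 284 transcripts in their sums, 233 from Ensembl and 51 assembled from the reads. The main transcript held at least 80% of the gene's FPKM in 28 members and under 50% in 9. Between 24 and 3 months 19 of 280 member transcripts had a limma p under 0.05 (6.79%, compared with 7.9% of all transcripts) and 7 also had an absolute log2 fold change above 1 (2.5%, compared with 0.795%), and 0 passed after adjustment (0.0192% of all transcripts). Psmd11 was divided between the 1626-base ENSMUST00000173938, with 43.0% of its FPKM, and the 2848-base ENSMUST00000017572, with 41.8%. The shorter had 45.0, 35.8, 20.6, 19.3 and 21.9 FPKM in the 3-month mice and 7.71, 5.37, 23.0, 1.10 and 27.4 FPKM in the 24-month mice (log2 fold change -1.55, SE 0.66, limma adjusted p = 0.610). Mice 33 and 35 lay within the range of the young, and the other 3 old mice were below it. The longer transcript differed by 0.20 (adjusted p = 0.860), with 5.12 to 20.3 FPKM at 3 months and 7.94 to 22.2 FPKM at 24 months. Counted as fragments scaled to library size alone, a value that does not weight by transcript length, Psmd11 differed by -0.39 between 24 and 3 months, still with an unadjusted p under 0.05, and by -0.20 between 12 and 3 months, no longer with one.

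Psmc1 behaved alike in the other direction. Its main transcript, the 1518-base ENSMUST00000021595 with 72.3% of the FPKM, had 9.65, 5.78, 1.05, 12.1 and 5.62 FPKM at 3 months and 19.3, 14.3, 19.2, 6.82 and 17.6 FPKM at 24 months (1.23, SE 0.49, limma adjusted p = 0.584). Mouse 7 was lowest, and there an assembled isoform of 3224 bases took 7.15 FPKM. The same isoform was listed at 0 in mouse 33. As fragments scaled to library size alone the gene differed by 0.24, with an unadjusted p under 0.05. The part that the assembler's division of reads between overlapping transcripts has in these values was not tested.

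**Figure D5:**
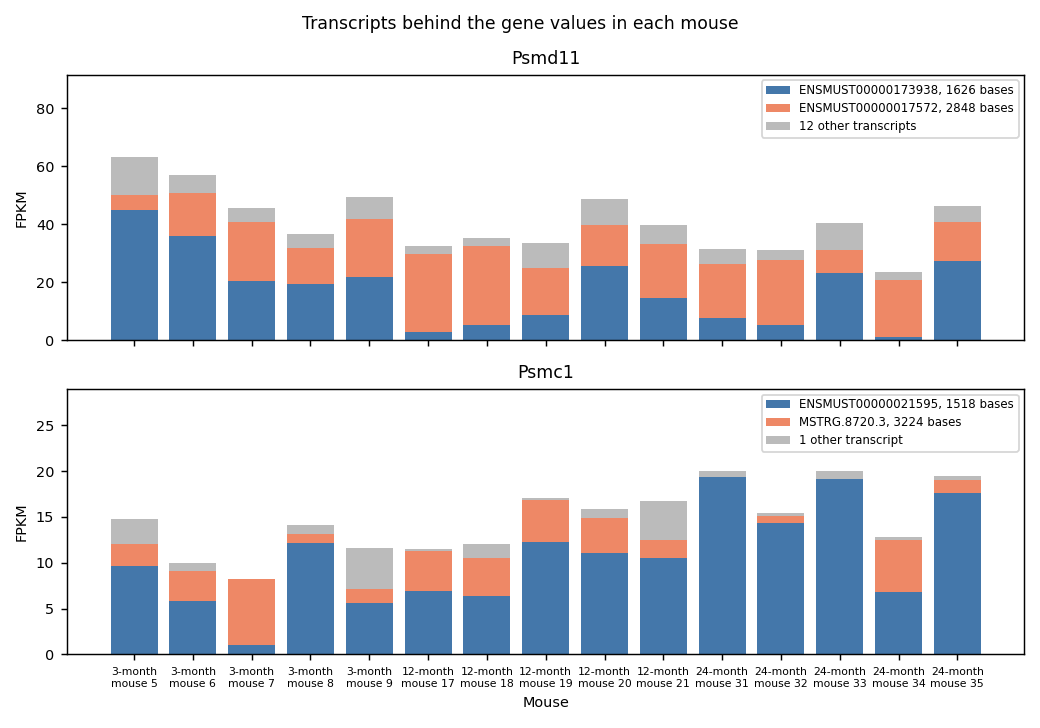
FPKM of the transcripts of Psmd11 (upper panel) and Psmc1 (lower panel) in each of the 15 mice, stacked to the gene value. The 1626-base transcript of Psmd11 ranges from 1.10 to 45.0 FPKM while the 2848-base transcript stays between 5.12 and 27.1 FPKM, and in Psmc1 the 1518-base transcript makes up over 50% of the value in all mice except mice 7 and 9.

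The partners of the proteasome were examined with fixed lists of 48 genes, 46 of which were found. Between 24 and 3 months 3 of them were higher (11.4% of all genes were) and 5 lower (3.47%) at an unadjusted limma p under 0.05, and 0 passed after adjustment (1.22%). Sem1, the smallest subunit of the regulatory particle, whose symbol falls outside the Psm series, had 5.06 ± 0.65 FPKM at 3 months and 7.58 ± 1.92 FPKM at 24 months, with every old mouse above every young mouse, as for 3.82% of all genes (0.48, SE 0.14, adjusted p = 0.152). Pomp, the maturation factor of the core, and the deubiquitinase Uchl5 were also higher (0.30 and 0.24, adjusted p = 0.235 and adjusted p = 0.239). The lower genes carry substrates to the proteasome or bind it. Ubqln1, a shuttle for tagged proteins and the highest in FPKM of the 13 genes listed as direct partners, had 38.1 ± 7.68 FPKM at 3 months, 26.3 ± 1.67 FPKM at 12 months and 23.4 ± 2.20 FPKM at 24 months (n = 5 each). Neither older group overlapped with the young, which held for 0.91% of all genes at 24 months and 0.667% at 12 months in this direction (-0.66, SE 0.13, limma adjusted p = 0.0512 at 24 months, and -0.50, adjusted p = 0.125 at 12 months). Zfand5, which stimulates the proteasome, had 13.6 ± 4.14 and 8.59 ± 0.62 FPKM (-0.57, adjusted p = 0.169). Ubqln4 (-0.32), the ubiquitin receptor Adrm1 (-0.26) and the segregase Vcp (-0.20) were the others, with adjusted p of 0.198, 0.288 and 0.253.

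Between 12 and 3 months 3 partners were higher (11.4% of all genes) and 2 lower (2.9%), the lower ones being Ubqln1 and the deubiquitinase Usp14 (-0.42, limma adjusted p = 0.188). Between 24 and 12 months 0 were higher (3.07% of all genes) and 3 lower (3.36%), of which Adrm1 (-0.43, adjusted p = 0.670) and Zfand5 (-0.33, adjusted p = 0.689) had the smallest p. By list, none of the 7 genes of transcriptional control had p under 0.05 in any comparison. Nfe2l1, the highest of them, had 23.7 ± 8.29, 27.8 ± 2.46 and 26.2 ± 2.19 FPKM at 3, 12 and 24 months. None of the 8 interferon response genes passed either. Of the 8 genes of antigen processing only Tap2 was higher at 12 months (0.32, adjusted p = 0.271). B2m, the light chain of MHC class I and the highest of these, had 286 ± 148, 266 ± 59.4 and 396 ± 169 FPKM.

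Circular RNAs gave another readout of the same genes. The deposited table held 36 circles of 13 members, 28 exonic and 8 intronic, among them 10 of Psme4, 9 of Psmd1 and 5 of Psma3. Circles of one gene can overlap. Those of Psma3 that start at 70983324 and 70983319 and end at 70986935 had mean counts of 225 and 226. The counts of circles below are therefore not counts of independent features. Their deposited values are estimated counts, which summed to between 6974494 and 9889971 per library over all circles, and how they were made is not given in the sources used here. Between 24 and 3 months 1 of the 36 passed in edgeR's quasi-likelihood test (2.78%, compared with 13.3% of all circles tested). This was an intronic circle of Psmb1, a non-catalytic beta subunit (chr17:15490329-15493097 as deposited, minus strand). As deposited, its estimated counts were 124, 101, 87.9, 97.6 and 98.0 at 3 months, 141, 157, 154, 131 and 171 at 12 months, and 159, 118, 204, 179 and 193 at 24 months. Mouse 5 reached above mouse 32, and all other old mice were above all young ones (log2 fold change 0.58, SE 0.14, adjusted p = 0.0188 in edgeR). In DESeq2 the adjusted p was 0.00445. Without mouse 33 it no longer passed in edgeR. Its adjusted p was then 0.0514, and without any other mouse it was between 0.0107 and 0.0468. Its host Psmb1 had a log2 fold change of 0.02 in its gene value (SE 0.08, limma adjusted p = 0.937). It was also the only one with an unadjusted p under 0.05 (28.8% of all circles). Between 12 and 3 months 0 circles passed after adjustment (6.63% of all) and 5 had an unadjusted p under 0.05 in edgeR (23.7%). Between 24 and 12 months 0 passed (0.738% of all) and 7 had an unadjusted p under 0.05 (16.9%). DESeq2 gave 1 circle between 12 and 3 months.

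The 6 circles of Psmd1 that share their start at position 86078568 of chromosome 1 had mean counts of 58.2, 199, 227, 260, 839 and 1078, higher with each further end, over spans of 2, 8, 9, 10, 13 and 17 exons. The part of the span in these counts was not tested.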

How the data were processed

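Kidney RNA of 15 male mice was measured, 5 at each age, and ages were taken from the age label, since all sample titles begin with 3M. Per the labels ribosomal RNA was removed and stranded libraries were made, and StringTie and TopHat2 were used, whereas the methods name oligo(dT) selection, Cutadapt, Bowtie2, HISAT2 and StringTie on GRCm38 (Ensembl release 88). The deposited FPKM and mean coverage per transcript come from StringTie's merged assembly. The deposited circular RNA values are estimated counts with their FPKM, and these were rounded before testing. Aligned bases were derived from coverage and FPKM. All 15 value columns belonged to these mice, and 0 columns of other samples were present. Of 230 Ensembl transcripts of members found in GENCODE M21, 222 had both ends within 1 base.

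Gene values were sums of FPKM over transcripts with class code =, c, j or o. Genes above 0 in at least 1 mouse compared were tested on log2(FPKM + 1) with limma 3.58.1 (trended prior, R 4.3.3), only the mice of both ages in the fit, and p-values were adjusted over all genes. Circular RNAs above 0 in at least 5 of 10 mice were tested with edgeR 4.0.16 (quasi-likelihood, TMM) and DESeq2 1.42.0. Ratios used exact permutations over the 252 assignments, and correlations 100000 permutations within ages (Python 3.11.15, scipy 1.17.1, numpy 2.4.6, pandas 2.3.3). Because the files hold no whole reads per gene, precision is given by the spread between mice. The fits were tested on simulated data. Members and lists were chosen with earlier results of these data known. Values per mouse were given for the catalytic subunits, PA28 and the 3 members with the smallest p in each direction of each comparison. Other members and partners were named after their values were seen, where they made up a count of members, partners or markers.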

Additional observations from a re-analysis of the deposited data

Results flagged for a closer look

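Among the 141 groups of 5 mice formed by the 47 members with a mean of at least 1 FPKM and the 3 ages, 9 (6.38%) held a mouse whose gap to its nearest neighbour took up more than the 95% critical share of the range, where chance flags about 1 in 20. Mouse 17 of the 12-month group was apart for 3 genes, at 36.6 FPKM for Psma2 (others 28.4 to 30.1), 45.1 FPKM for Psmb5 (others 18.1 to 25.3) and 0.711 FPKM for Psmg4 (others 2.93 to 3.45). Mouse 32 of the 24-month group was high for Psmb8 at 6.05 FPKM (others 2.003 to 2.995) and for Psme2 at 14.9 FPKM (others 8.42 to 9.98), and mouse 9 of the 3-month group for Psmb8 at 4.12 FPKM (others 1.34 to 2.05). Mouse 5 of the 3-month group was high for Psmd6 at 28.1 FPKM (others 16.3 to 18.4) and Psmd12 at 13.8 FPKM (others 11.1 to 11.6). Mouse 33 of the 24-month group was low for Psmd5 at 5.57 FPKM (others 9.80 to 11.1).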

How the results depend on the processing

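No paired analysis was possible because the replicate numbers of the labels, 5 to 9, 17 to 21 and 31 to 35, share none between ages. The number of members with an adjusted p under 0.05 was 0 in each comparison under every alternative. Shares of all genes under the alternatives are not given here, so the counts that follow stand without them. Members with an unadjusted p under 0.05 between 24 and 3 months numbered 4, and 10 with median-ratio scaling (1 higher, 9 lower), between 2 (without 3-month mouse 5) and 7 (without 24-month mouse 31) when a mouse was left out. Between 12 and 3 months they numbered 7, and 3 with median-ratio scaling, 3 to 9 without a mouse (3 without mouse 19, 4 without mouse 6). Between 24 and 12 months they numbered 7, then 4 with a mean of at least 1 FPKM, 1 as TPM and 3 with median-ratio scaling, 2 to 8 without a mouse (3 without mouse 33, 4 without mouse 18). Member transcripts with p under 0.05 numbered 19, then 9 with a mean of at least 1 FPKM, and 15 to 21 without a mouse. Circular RNAs of members with an adjusted p under 0.05 numbered 0 to 1 without a mouse between 24 and 3 and between 12 and 3 months (1 without mouse 5, Psmb1, or mouse 7, Psmg1, in the latter) and 0 to 0 between 24 and 12 months, and DESeq2 gave 1 between 12 and 3 months, of Psmg1.

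The log2 ratio of Psmb8 to Psmb5 differed by 0.32 to 0.72 (24 against 3 months), -0.12 to 0.18 (12 against 3) and 0.35 to 0.70 (24 against 12) without a mouse, and the 12 against 3 value turned to 0.067 with a pseudocount of 0.1 and to 0.18, 0.11 and 0.030 without single mice. For Psmb9 to Psmb6 the ranges were 0.07 to 0.44, -0.37 to -0.11 and 0.30 to 0.66, and for Psmb10 to Psmb7 0.14 to 0.42, -0.047 to 0.23 and 0.10 to 0.27. Of 738 recomputed fold changes of the named members, 10 turned sign. Psmb7 (24 against 3 months) was 0.015 as TPM, 0.0012 as fragments scaled to library size alone, an alternative chosen after seeing the data, and -0.047 to 0.023 without a mouse. Psmb7 (12 against 3) was -0.063 with median-ratio scaling, Psmb10 (24 against 12) -0.0074 to 0.21 without a mouse, turning without mouse 32, and Psmc1 (24 against 12) -0.015 as fragments scaled to library size alone. Of the others 629 kept their direction and side of the threshold. The cause of these shifts was not tested. The 5 mice per age limit detection to differences beyond the intervals given, and low genes more than high ones.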
